A study of Mus musculus with 24 samples.

Results

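Of the 35 genes described here, most encode the enzymes that build cholesterol and long-chain fatty acids, or the proteins that set the activity of those enzymes' genes. Stard4 encodes a cholesterol carrier and is counted below with the regulators. They were taken from a list of 37 symbols by looking up each symbol in the deposited tables of duodenal expression, and values sharing a symbol were summed. The list held 35 of the 25410 symbols in the tables, and all 35 passed the filter on low values that left 20006 genes for testing. The expression of Hmgcs1, which encodes cytosolic HMG-CoA synthase, is not analysed here, although its promoter is counted below, and Msmo1 is listed under its older name, Sc4mol.

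The samples were 24 RNA-seq libraries of duodenum, the first segment of the small intestine, from 8-week-old male Cyp27b1 null mice, in 4 groups of 6. The groups were mice on the rescue diet given 1,25-dihydroxyvitamin D3 (1,25D), mice on the rescue diet given vehicle, mice on the normal diet given 1,25D, and mice on the normal diet given vehicle. All mice lacked functional Cyp27b1, the enzyme that makes 1,25D, and all were kept from weaning on a purified food without vitamin D. The rescue diet held 2% calcium, 1.25% phosphorus and 20% lactose, whereas calcium was 0.47% and phosphorus 0.3% in the normal diet. A single dose of 2 ng 1,25D per g body weight, or vehicle, was injected into the peritoneum 6 h before the tissue was taken. The labels give 12 mice per diet and 8 injected per group, beside 6 libraries per group. They do not tie libraries to animals or litters, so a p-value here sets a difference against the spread between libraries. Values are RPKM, reads scaled to feature length and to library size, whose read totals are not given, so the depth is unknown.

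Cholesterol is made from acetyl-CoA through mevalonate, farnesyl diphosphate, squalene and lanosterol, and fatty acids are made from the same acetyl-CoA by carboxylation, chain building, elongation and desaturation. Most of these enzymes' genes are targets of the transcription factors SREBP-1 and SREBP-2, encoded by Srebf1 and Srebf2. SREBP precursors are held in the endoplasmic reticulum by SCAP bound to INSIG proteins while sterols are plentiful, and are released for cleavage in the Golgi when sterols run low. The small intestine is a major site of cholesterol synthesis as well as of cholesterol uptake. Insig2 has been described as a target of the vitamin D receptor in mouse preadipocytes.

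The windows of 250 bases before the transcript start of Sc4mol, Insig2 and Insig1 are shown because Sc4mol and Insig2 were the members that passed the test below and Insig1 is the paralogue of Insig2. They are from RefSeq on the GRCm38.p6 build, which is not the build of the deposited tables. The Sc4mol window (RefSeq symbol Msmo1) lies at chr8:64733579-64733828 on the minus strand, the Insig2 window at chr1:121332590-121332839 on the minus strand, before the outermost of 3 listed starts, and the Insig1 window at chr5:28071162-28071411 on the plus strand. The Insig2 start was taken by position, and which of the 3 is used in these samples was not tested. Insig2 expression is a sum of 2 rows, averaging 0.0379 and 18.4 RPKM over all libraries, which were not tied to starts. Capitals mark CCAAT or its complement ATTGG, the element that NF-Y binds, and CACGTG, an E-box. NF-Y is a known partner of SREBP at sterol-regulated promoters.
Sc4mol: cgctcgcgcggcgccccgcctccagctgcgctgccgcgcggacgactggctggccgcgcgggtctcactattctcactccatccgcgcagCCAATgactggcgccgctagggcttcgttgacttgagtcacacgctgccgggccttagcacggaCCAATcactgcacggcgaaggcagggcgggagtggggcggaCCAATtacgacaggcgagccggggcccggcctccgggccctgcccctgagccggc
Insig2: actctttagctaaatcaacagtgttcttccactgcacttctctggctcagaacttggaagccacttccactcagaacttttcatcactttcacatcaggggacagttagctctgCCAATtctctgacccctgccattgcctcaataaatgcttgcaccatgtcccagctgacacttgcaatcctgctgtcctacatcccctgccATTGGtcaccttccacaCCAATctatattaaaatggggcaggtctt
Insig1: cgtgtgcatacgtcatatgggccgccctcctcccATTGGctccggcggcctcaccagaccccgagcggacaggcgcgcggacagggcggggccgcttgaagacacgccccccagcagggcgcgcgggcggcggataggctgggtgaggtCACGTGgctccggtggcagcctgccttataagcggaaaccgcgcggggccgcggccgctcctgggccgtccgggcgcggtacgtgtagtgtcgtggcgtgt

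CCAAT on either strand starts 160, 96 and 55 bases before the Sc4mol start, and 136, 46 and 29 bases before the Insig2 start. Insig1 has 1 such element 216 bases before its start and 1 CACGTG 101 bases before it. Of the 37 symbols, 29 matched RefSeq promoters, in 38 windows. CCAAT was in 24 of these windows (63.2%), against 33.8% of all 32851 mouse windows of the same length. CACGTG was in 6 of the 38 (15.8%), against 6.02% of all windows. The sterol regulatory element TCACNCCAC was in 1 of the 38 (2.63%, before Hmgcs1), against 1.05% of all windows. The DR3 vitamin D response element, searched with GGTCA or with GTTCA as its exact repeat, was in 0 of the 38 windows, against 0.0457% and 0.0426% of all windows. At shares this low a count of 0 in 38 windows was likely in advance, so it does not tell members from other genes. Repeats mixing GGTCA with GTTCA, and bases outside the windows, were not searched. All 5 motifs were searched on both strands, none overlaps another in the printed windows, and a match describes letters in a window and is not a measured binding site.

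All 35 members were detected in each of the 24 libraries. Mean levels over all libraries ran from 3.48 RPKM for Tm7sf2, a sterol C14 reductase, to 113 RPKM for Sc4mol, the methylsterol monooxygenase that starts removal of the C4 methyl groups. The 7 members at or above 50 RPKM were Sc4mol, Insig1 (87.8 RPKM), Sc5d (79.7 RPKM), Elovl6 (66.9 RPKM), Idi1 (59.9 RPKM), Stard4 (54.1 RPKM) and Ebp (52.0 RPKM). Sc5d and Ebp act late in sterol synthesis, Idi1 isomerises isopentenyl diphosphate, Elovl6 elongates palmitate, and Stard4 carries cholesterol through the cytosol. The 6 members under 5 RPKM were Tm7sf2, Mvd, Dhcr7, Scap, Nsdhl and Scd1. Within groups, Insig2 varied least, with a pooled SD of 0.19 on the log2 scale, and Scd1 most, with 0.97. Scd1, a stearoyl-CoA desaturase, had a 13.7-fold gap between its highest and lowest library, whereas the gap was 2.24-fold for Insig2.

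The libraries were checked on genes outside the set. Cyp24a1, the 1,25D-degrading enzyme and a classic target of the hormone, stood at 92.1 to 962 RPKM after 1,25D and 0.016 to 0.712 RPKM under vehicle on the rescue diet, and at 509 to 1036 RPKM after 1,25D and 0.131 to 4.03 RPKM under vehicle on the normal diet. Cyp27b1 stayed at or below 0.452 RPKM in every library, and its deleted part is not given in the labels. Markers of the exocrine pancreas, which lies against the duodenum, took 0.00518% to 5.29% of summed RPKM in 23 libraries and 15.3% in normal vehicle replicate 6. That library was the lowest of the 24 for 19 of the 35 members. The pattern was less broad in rescue 1,25D replicate 4, where 1 of 18 sterol enzymes was above its own mean over all libraries. In these bulk samples, fewer cells of a type and less RNA per cell cannot be told apart.

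On the normal diet, Sc4mol was the 1 member that passed the test after 1,25D against vehicle, and it was higher after 1,25D. All 18 measured sterol enzymes had a positive log2 fold change, with a median of 0.39, although 16 did under quantile normalization, 15 under median-of-ratios scaling and 14 without normal vehicle replicate 6, where the median was 0.26. The 6 regulators did too, with a median of 0.32, while the 11 fatty acid genes split into 5 above 0 and 6 below, with a median of -0.15. The test was limma on log2(RPKM + 0.5), and a gene was called where its p, adjusted by Benjamini-Hochberg across the whole table, was under 0.05. By this rule, 1 of 35 members was called higher, 0 were called lower and 34 were not called. Over all 20006 genes, 1.78% were called higher and 0.055% lower (1.84% in either direction), and 58.8% had a positive fold change with a median of 0.05. The split of all calls was 357 higher and 11 lower, but 231 and 93 under quantile normalization, 208 and 68 under median-of-ratios scaling, and 225 and 36 when libraries were rescaled without pancreas genes. At an unadjusted p under 0.05, 12 members stood higher and 0 lower, against 9.74% and 2.22% of all genes. These 12 were Acat2, Mvd, Fdft1, Sqle, Lss, Cyp51, Sc4mol, Hsd17b7 and Sc5d among the enzymes, and Srebf2, Insig1 and Insig2 among the regulators.

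Sc4mol ranged from 94.2 to 241 RPKM after 1,25D (median 124 RPKM) and from 42.0 to 95.2 RPKM under vehicle (median 77.5 RPKM). The 2 highest 1,25D libraries, replicates 5 and 6, stood far above the other 4, and the groups overlapped by 1 library on each side. The means were 154 ± 68.5 RPKM after 1,25D and 71.3 ± 21.6 RPKM under vehicle (SD, n = 6 each), and the log2 fold change was 1.06 (SE 0.27, limma adjusted p = 0.0413). The call lay close to the threshold: 9 of the 24 fits that left out 1 library lost it, with adjusted p between 0.0521 and 0.125. These were the fits without normal 1,25D replicate 3, 4, 5 or 6, without normal vehicle replicate 2, 3, 5 or 6, and without rescue vehicle replicate 3. Without normal vehicle replicate 6 the log2 fold change was 0.92 (adjusted p = 0.0951). The call was also lost with no filter, no trend, array weights, the replicate number as a block, quantile normalization or median-of-ratios scaling, at adjusted p of 0.0508 to 0.0877.

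Several other enzymes of the mevalonate and squalene steps also stood higher without passing the test. Mvd, which decarboxylates mevalonate diphosphate, ranged from 3.00 to 5.90 RPKM after 1,25D (median 3.78 RPKM) and from 1.09 to 3.70 RPKM under vehicle (median 2.45 RPKM). The groups overlapped, with a log2 fold change of 0.75 (SE 0.26, limma adjusted p = 0.176). Mvd is a sum of 2 rows, and only 1 of them was higher. That row averaged 3.11 RPKM after 1,25D and 1.19 RPKM under vehicle, the other 1.21 and 1.26 RPKM. Squalene epoxidase, Sqle, ranged from 16.5 to 35.0 RPKM after 1,25D (median 27.1 RPKM) and from 11.3 to 32.7 RPKM under vehicle (median 13.8 RPKM). The highest vehicle library stood above every treated library but the highest, and the log2 fold change was 0.68 (SE 0.30, limma adjusted p = 0.341). Fdft1, squalene synthase, had a log2 fold change of 0.69, Lss, lanosterol synthase, of 0.64, and Cyp51, lanosterol demethylase, of 0.56. Acat2, Hsd17b7 and Sc5d had log2 fold changes of 0.47, 0.46 and 0.41. Without normal vehicle replicate 6, the lowest library of the 24 for several of these genes, the values were 0.59 for Mvd, 0.47 for Lss, 0.35 for Cyp51 and 0.33 for Acat2. The smallest fold changes of the enzymes were those of Ggps1, which makes geranylgeranyl diphosphate, Nsdhl and Dhcr7, at 0.01, 0.02 and 0.02. These 3 were below 0 without that library, at -0.11, -0.18 and -0.09.

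Among the regulators, the paralogues Insig1 and Insig2 showed the largest log2 fold changes. Insig1 ranged from 78.6 to 202 RPKM after 1,25D (median 122 RPKM) and from 52.4 to 79.4 RPKM under vehicle (median 65.2 RPKM). The groups touched at 1 library on each side, and the log2 fold change was 0.86 (SE 0.27, limma adjusted p = 0.109). Of the alternatives, it passed only in the fit restricted to these groups (limma adjusted p = 0.0256). In the others its adjusted p ran from 0.0733 with the replicate number as a block to 0.252 without normal 1,25D replicate 5. Insig2 ranged from 18.3 to 23.4 RPKM after 1,25D (median 21.4 RPKM) and from 10.6 to 17.8 RPKM under vehicle (median 16.9 RPKM). Insig2 was the only member whose groups did not overlap, a pattern that 2.13% of all genes showed in this direction and 0.085% in the other. Its log2 fold change was 0.39 (SE 0.12, limma adjusted p = 0.0999), and 0.28 without normal vehicle replicate 6 (adjusted p = 0.142). Srebf2 ranged from 7.85 to 10.4 RPKM after 1,25D (median 10.1 RPKM) and from 5.70 to 9.37 RPKM under vehicle (median 7.85 RPKM), with a log2 fold change of 0.35 (SE 0.17, limma adjusted p = 0.408). Srebf1 averaged 6.96 ± 1.18 RPKM after 1,25D and 6.41 ± 1.44 RPKM under vehicle, and Scap 4.16 ± 0.40 RPKM after 1,25D and 4.08 ± 1.26 RPKM under vehicle (SD, n = 6 each), differences within the spread between libraries.

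The fatty acid genes had no common direction on the normal diet. Acaca, the acetyl-CoA carboxylase that commits carbon to fatty acids, ranged from 4.92 to 7.28 RPKM after 1,25D (median 5.88 RPKM) and from 3.58 to 6.36 RPKM under vehicle (median 4.92 RPKM), with a log2 fold change of 0.33 (SE 0.17, limma adjusted p = 0.476). Fasn, fatty acid synthase, ranged from 8.71 to 17.1 RPKM after 1,25D (median 11.9 RPKM) and from 5.74 to 11.5 RPKM under vehicle (median 8.74 RPKM), with a log2 fold change of 0.48 (limma adjusted p = 0.524). The desaturases Fads1 and Fads2, which make polyunsaturated fatty acids, had negative log2 fold changes of -0.46 and -0.45 (adjusted p = 0.474 and 0.452). None of these 4 genes was called.

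Markers of villus enterocytes, the absorptive cells of the epithelium, had 10 of 10 fold changes above 0 on this diet. Their mean log2(RPKM + 0.5) over 10 genes was 8.22 to 8.87 after 1,25D and 6.42 to 7.73 under vehicle, without overlap. Of these 10 genes, 3 (Alpi, Lct and Fabp2) were called higher and none was at 0 in any library, while 0 of 10 general epithelial markers were called. Crypt stem cell markers stood the other way, with 5 of 5 fold changes below 0, a median of -0.57, 2 at an unadjusted p under 0.05 and 0 called; their summed level was 199 to 365 RPKM after 1,25D and 246 to 537 RPKM under vehicle. Pancreas markers took 0.00518% to 3.17% of summed RPKM after 1,25D and 0.356% to 15.3% under vehicle. The part of any of these in the members' values was not tested. With libraries rescaled without pancreas genes, 15 of 18 sterol enzymes had a positive fold change and the Sc4mol log2 fold change was 1.00 (limma adjusted p = 0.0627). Without normal vehicle replicate 6, 5 of 6 regulators had a positive fold change. The median of the 35 members was then 0.19 and that of all genes -0.02, against 0.30 and 0.05 with all libraries.

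**Figure D1:**
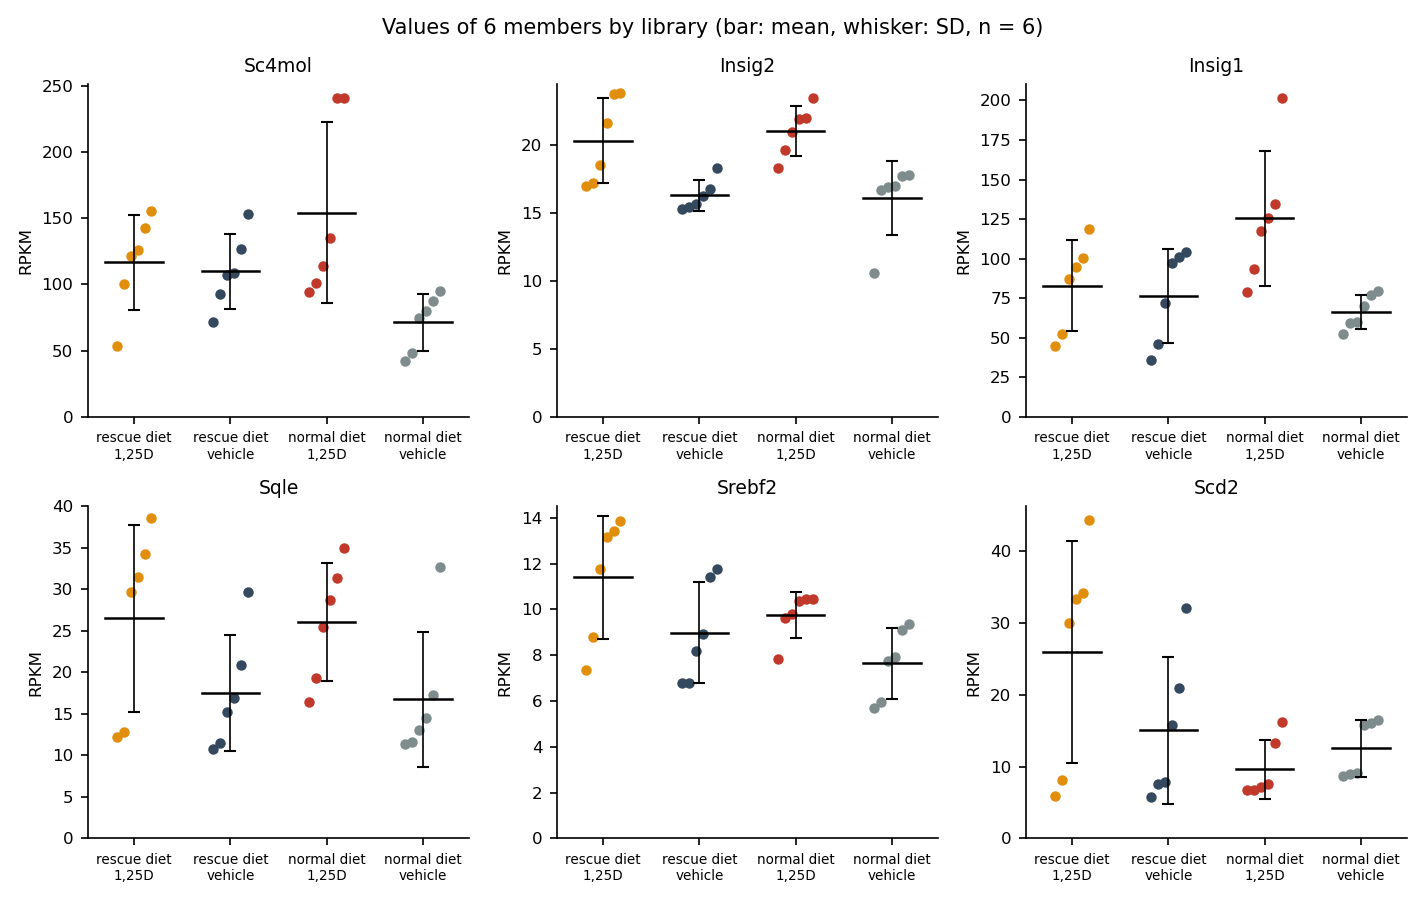
RPKM (linear axes from 0) of 6 members in each of the 24 libraries, grouped by diet and injection; points are libraries, bars are means and whiskers are SD (n = 6). On the normal diet, the Insig2 points after 1,25D (18.3 to 23.4 RPKM) lie above those under vehicle (10.6 to 17.8 RPKM), and the Sc4mol points overlap by 1 library on each side.

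On the rescue diet, no member passed the test after 1,25D, although Insig2, Srebf2 and Sqle again stood higher in the treated group. Of the 18 sterol enzymes, 13 had a positive log2 fold change, with a median of 0.17, and 5 of 6 regulators and 6 of 11 fatty acid genes did so. The count of members called was 0 in either direction with limma, against 0.14% of all genes called higher and 0.005% lower. At an unadjusted p under 0.05, 1 member, Insig2, stood higher and 0 lower, against 3% and 1.83% of all genes. Over all 35 members 24 fold changes were positive and the median was 0.14, against 60.9% and 0.06 over all genes.

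Insig2 ranged from 17.0 to 23.8 RPKM after 1,25D (median 20.1 RPKM) and from 15.3 to 18.3 RPKM under vehicle (median 15.9 RPKM). After 1,25D, 4 libraries exceeded the highest vehicle value and 2 did not, with a log2 fold change of 0.30 (SE 0.12, limma adjusted p = 0.878). Srebf2 ranged from 7.36 to 13.9 RPKM after 1,25D (median 12.4 RPKM) and from 6.76 to 11.8 RPKM under vehicle (median 8.54 RPKM), with a log2 fold change of 0.32 (SE 0.17). Sqle ranged from 12.2 to 38.5 RPKM after 1,25D (median 30.6 RPKM) and from 10.7 to 29.7 RPKM under vehicle (median 16.1 RPKM), with a log2 fold change of 0.53 (SE 0.30). The groups overlapped for all 3 of these genes.

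Sc4mol ranged from 53.8 to 155 RPKM after 1,25D (median 123 RPKM) and from 71.6 to 153 RPKM under vehicle (median 108 RPKM), with a log2 fold change of 0.05 (SE 0.27, limma adjusted p = 0.975). Its lowest treated library was replicate 4, without which the value was 0.26. Insig1 ranged from 44.8 to 119 RPKM after 1,25D (median 90.8 RPKM) and from 35.8 to 104 RPKM under vehicle (median 84.9 RPKM), with a log2 fold change of 0.15 (limma SE 0.27, adjusted p = 0.921), and 0.31 without that replicate. Scd2, the second stearoyl-CoA desaturase, ranged from 5.89 to 44.3 RPKM after 1,25D (median 31.7 RPKM) and from 5.77 to 32.1 RPKM under vehicle (median 11.9 RPKM), with a log2 fold change of 0.70 (limma SE 0.44, adjusted p = 0.878). Its treated libraries split into 4 high and 2 low ones. Fasn ranged from 5.29 to 22.6 RPKM after 1,25D (median 16.9 RPKM) and from 6.86 to 14.6 RPKM under vehicle (median 11.8 RPKM), and Acaca from 4.03 to 10.3 RPKM after 1,25D (median 7.63 RPKM) and 5.35 to 7.58 RPKM under vehicle (median 6.53 RPKM).

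Here the villus enterocyte markers went the other way, with 9 of 10 fold changes below 0 and 1 above. Their mean log2 was 6.46 to 8.36 after 1,25D and 6.92 to 8.98 under vehicle, and 0 of 10 were called. Crypt stem cell markers had 5 of 5 fold changes below 0, with a median of -0.39 and 0 called, and summed to 255 to 569 RPKM after 1,25D and 350 to 974 RPKM under vehicle. The part of either in the members' values was not tested. Without rescue 1,25D replicate 4, 27 of 35 members had a positive fold change, and the median was 0.26 over all members and 0.30 over the sterol enzymes.

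**Figure D2:**
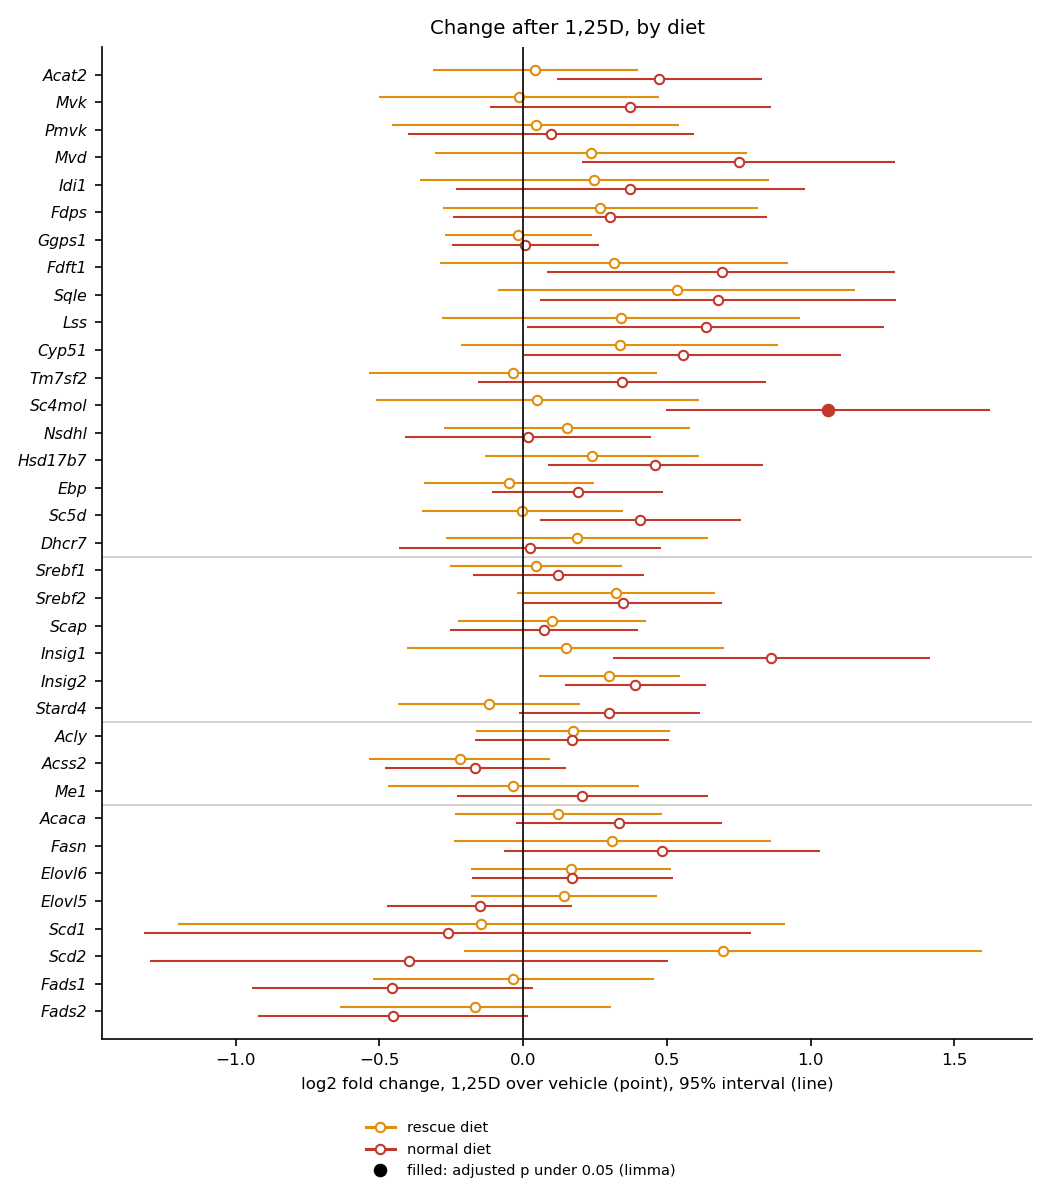
Log2 fold change of each of the 35 members, 1,25D over vehicle, on the rescue diet (orange, upper) and normal diet (red, lower), with limma's 95% intervals as lines; grey lines separate sterol enzymes, regulators, acetyl-CoA and NADPH supply, and fatty acid synthesis. Sc4mol on the normal diet, at 1.06, is the only filled point, and the intervals of the 2 diets overlap for every gene.

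Averaged over both diets, 1 member rose after 1,25D: Insig2, the membrane protein that retains SCAP and SREBP in the endoplasmic reticulum. Its log2 fold change was 0.35 (SE 0.08, limma adjusted p = 0.0350), and it was the 1 member of 35 called, with 0 lower and 34 not called. Over all genes, 1.19% were called higher and 0.09% lower, 1.28% in all (238 and 18 genes, but 235 and 132 under quantile normalization and 203 and 111 under median-of-ratios scaling). The Insig2 call was lost in 11 of the 24 fits that left out 1 library, with adjusted p between 0.0605 and 0.0790. They were the fits without normal 1,25D replicate 2, 3, 4 or 6, rescue vehicle replicate 3, 4, 5 or 6, and rescue 1,25D replicate 3, 4 or 6. Without normal vehicle replicate 6, its lowest library, the log2 fold change was 0.29 (adjusted p = 0.0153). The fit with no trend also lost the call (adjusted p = 0.0639), as did the fit with the replicate number as a block (adjusted p = 0.0724).

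The next smallest p-values were those of Sc4mol, Sqle and Srebf2, with log2 fold changes of 0.56 (SE 0.19, limma adjusted p = 0.236), 0.61 (SE 0.21, adjusted p = 0.242) and 0.34 (SE 0.12, adjusted p = 0.242). Insig1 had a log2 fold change of 0.51 (limma adjusted p = 0.290). In all, 17 of 18 sterol enzymes, 6 of 6 regulators and 6 of 11 fatty acid genes had a positive fold change, against 65.8% of all genes. At an unadjusted p under 0.05, 12 members stood higher and 0 lower, against 7.45% and 2.33% of all genes. Of the villus enterocyte markers 8 of 10 had a positive fold change in this average and 1 was called higher, whereas 5 of 5 crypt stem cell markers were below 0, with a median of -0.52, 3 at an unadjusted p under 0.05 and 0 called. The part of these markers in the members' values was not tested.

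The difference of the 1,25D effect between the diets was tested directly as rescue minus normal. No member passed with limma, against 0% of all genes called higher and 0.005% lower, and the most negative value was that of Sc4mol. Its difference was -1.01 on the log2 scale (95% interval -1.81 to -0.21, unadjusted p = 0.015, adjusted p = 0.521), and -0.67 without normal vehicle replicate 6 and rescue 1,25D replicate 4. The differences of Insig1 and Stard4 were -0.72 (SE 0.38, limma adjusted p = 0.795) and -0.42 (SE 0.22, adjusted p = 0.782), and that of Scd2 was 1.09 (SE 0.62, adjusted p = 0.826). Sc4mol was the 1 member with an unadjusted p under 0.05, against 5.59% of all genes on the lower side and 1.26% on the higher side. The difference was negative for 16 of 18 sterol enzymes, but for 11 under quantile normalization and for 9 without the 2 named libraries, and 51.7% of all genes had a positive difference. The median over all genes was 0.01, and 0.13 with libraries rescaled without pancreas genes. Villus enterocyte markers had 10 of 10 differences below 0, with a median of -1.55, 9 at an unadjusted limma p under 0.05 and 0 called. Pancreas markers had 16 of 16 differences above 0, with a median of 3.24 and 0 called. General epithelial markers had 9 of 10 below 0, and crypt stem cell markers 3 of 5 above 0. The part of any of these markers in the members' differences was not tested.

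Under vehicle, no member passed the test of the rescue diet against the normal diet. The largest log2 fold changes were in Sc4mol and in Mvk, mevalonate kinase, at 0.64 each. With limma, 0 of 35 members were called, as were 0% of all genes in either direction. At an unadjusted p under 0.05, 3 members stood higher and 0 lower, against 6.58% and 0.6% of all genes. The fold change was positive for 34 of 35 members, all but Scd1, but for 27 under median-of-ratios scaling, 27 with libraries rescaled without pancreas genes and 19 under quantile normalization. Over all genes 68.9% were positive.

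Mvk ranged from 5.62 to 9.46 RPKM on the rescue diet (median 7.16 RPKM) and from 2.28 to 6.82 RPKM on the normal diet (median 4.86 RPKM), with a log2 fold change of 0.64 (SE 0.24, limma adjusted p = 0.618). Acaca ranged from 5.35 to 7.58 RPKM on the rescue diet (median 6.53 RPKM) and from 3.58 to 6.36 RPKM on the normal diet (median 4.92 RPKM), with a log2 fold change of 0.42 (limma SE 0.17, adjusted p = 0.660). Sc4mol ranged from 71.6 to 153 RPKM on the rescue diet (median 108 RPKM) and from 42.0 to 95.2 RPKM on the normal diet (median 77.5 RPKM), with a log2 fold change of 0.64 (limma SE 0.27, adjusted p = 0.668). The groups overlapped for all 3. Mvd had a log2 fold change of 0.52 (SE 0.26, limma adjusted p = 0.712). Pancreas markers took 0.00629% to 2.13% of summed RPKM on the rescue diet and 0.356% to 15.3% on the normal diet. The median was 0.19 over the 35 members and 0.10 over all genes. Without normal vehicle replicate 6 it was 0.10 over the members and 0.02 over all genes. Villus enterocyte markers had 10 of 10 fold changes above 0, with a median of 0.62, 4 at an unadjusted limma p under 0.05 and 0 called. General epithelial markers had 10 of 10 above 0, with a median of 0.21, and crypt stem cell markers 3 of 5. The part of any of these markers in the members' values was not tested.

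After 1,25D, 3 fatty acid genes (Scd2, Fads1 and Elovl5) had the smallest p-values of the 35 members in the comparison between the diets, and none was called with all libraries weighted equally. Of the 8 genes of fatty acid synthesis, elongation and desaturation 7 had a positive log2 fold change, with a median of 0.33, whereas the 18 sterol enzymes had a median of 0.02 (0.13 without rescue 1,25D replicate 4) and the 6 regulators of -0.03. In all, 22 of 35 members were positive, against 70.7% of all genes. With limma, 0 of 35 members were called, against 0% of all genes called higher and 0.01% lower. At an unadjusted p under 0.05, 3 members stood higher and 1 lower, against 5.17% and 3.2% of all genes. The 2 diet groups overlapped for all 35 members, whereas they did not overlap for 0.54% of all genes with the rescue diet higher and 0.275% with it lower. The median over all genes was 0.12, and 0.01 under quantile normalization, under which 8 of 11 fatty acid genes and 8 of 18 sterol enzymes were positive.

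Scd2 ranged from 5.89 to 44.3 RPKM on the rescue diet (median 31.7 RPKM) and from 6.72 to 16.2 RPKM on the normal diet (median 7.33 RPKM), with a log2 fold change of 1.15 (SE 0.44, limma adjusted p = 0.487). Of the 6 rescue libraries, 4 were above every normal-diet library. Fads1, the delta-5 desaturase, ranged from 14.5 to 37.7 RPKM on the rescue diet (median 30.5 RPKM) and from 12.9 to 21.7 RPKM on the normal diet (median 15.3 RPKM), with a log2 fold change of 0.66 (limma SE 0.24, adjusted p = 0.480). Elovl5, which elongates polyunsaturated fatty acids, ranged from 13.1 to 25.7 RPKM on the rescue diet (median 20.6 RPKM) and from 12.1 to 18.2 RPKM on the normal diet (median 13.9 RPKM), with a log2 fold change of 0.44 (limma SE 0.16, adjusted p = 0.480). Insig1 was lower on the rescue diet, at 44.8 to 119 RPKM (median 90.8 RPKM), against 78.6 to 202 RPKM on the normal diet (median 122 RPKM), with a log2 fold change of -0.61 (limma SE 0.27, adjusted p = 0.551). With limma array weights, which count variable libraries less, Elovl5, Fads1, Fads2, Nsdhl and Scd2 were called higher at adjusted p between 0.0121 and 0.0477. In that fit 1287 of the 20006 genes tested were called in all, against 2 of 20006 with equal weights. Rescue 1,25D replicates 4, 5 and 6 had weights of 0.69, 0.49 and 0.45, and replicates 1, 2 and 3 of 1.70, 2.12 and 1.72. Villus enterocyte markers had a mean log2 of 6.46 to 8.36 on the rescue diet and 8.22 to 8.87 on the normal diet, and 6 adipocyte markers summed to 3.07 to 33.6 RPKM on the rescue diet and 10.01 to 22.6 RPKM on the normal diet. Most of that sum was 1 gene, Cidec, at 2.93 to 32.8 RPKM on the rescue diet and 9.22 to 21.7 RPKM on the normal diet. The 2 rescue libraries lowest for Scd2, replicates 4 (8.06 RPKM) and 6 (5.89 RPKM), were those with the highest enterocyte marker means, 8.20 and 8.36. The part of these markers in the fatty acid genes' values was not tested.

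Averaged over both injections, 29 of 35 members had a positive fold change on the rescue diet relative to the normal diet, against 76.7% of all genes. The limma test called 0 members, as it did 0% of all genes. At an unadjusted p under 0.05, 6 members stood higher and 0 lower, against 8.93% and 0.57% of all genes. The 4 smallest p-values were those of Fads1 (log2 fold change 0.45, limma adjusted p = 0.389), Mvk (0.45, adjusted p = 0.393), Elovl5 (0.29, adjusted p = 0.401) and Acaca (0.32, adjusted p = 0.416).

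**Figure D3:**
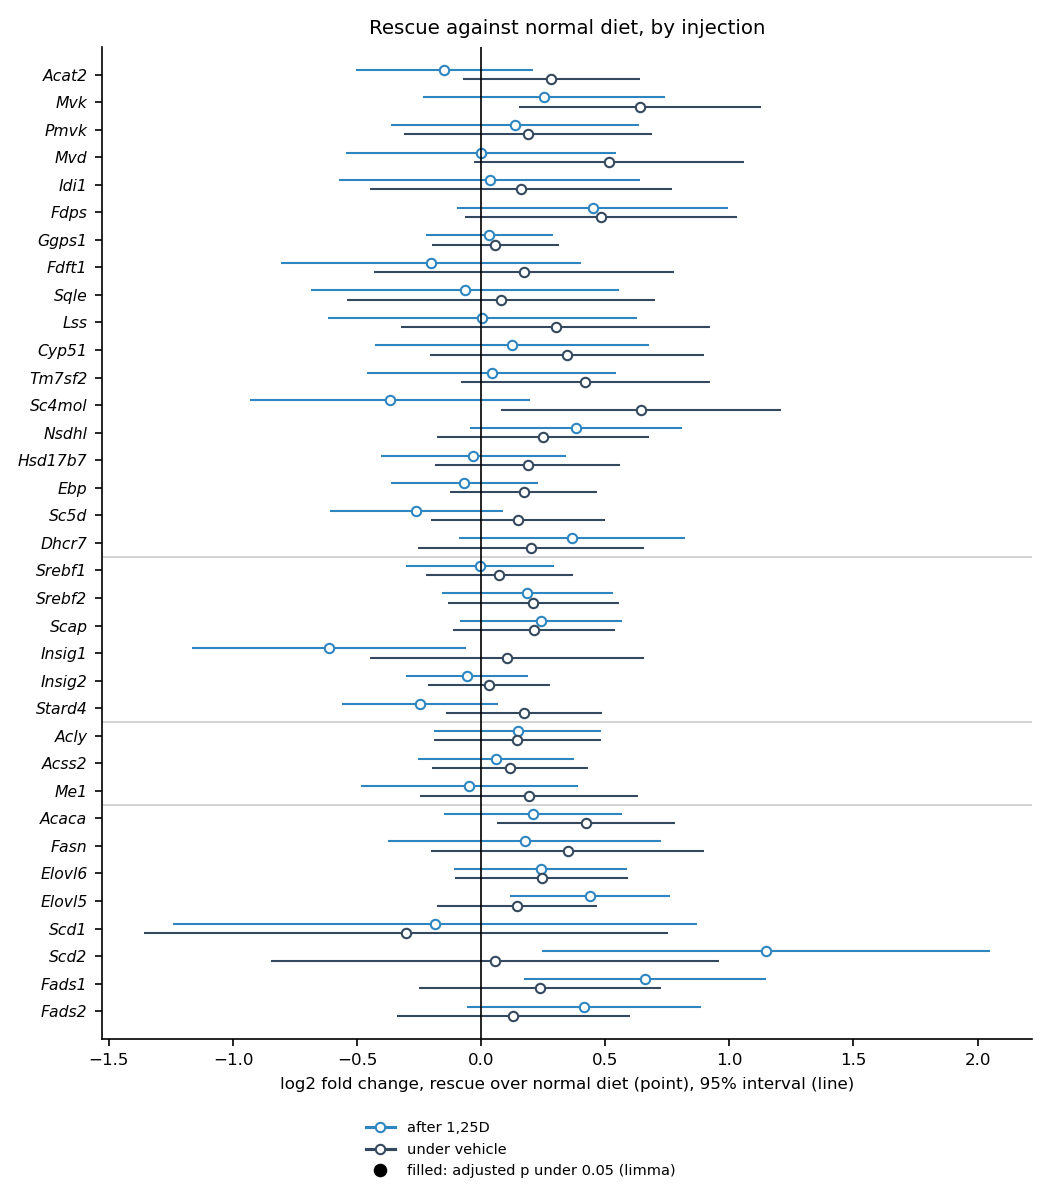
Log2 fold change of each of the 35 members, rescue over normal diet, after 1,25D (light blue, upper) and under vehicle (dark, lower), with limma's 95% intervals as lines and the same grouping by role. No point is filled, Scd2 after 1,25D has the largest value, 1.15, and Insig1 after 1,25D the lowest, -0.61.

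Other genes of the same pathways were described from lists that hold none of the 35 members. On the normal diet, 1 of 11 genes of SREBP control was called, Nr1h3, which encodes the sterol-sensing receptor LXR-alpha. It ranged from 10.5 to 15.0 RPKM after 1,25D (median 11.8 RPKM) and from 5.17 to 9.63 RPKM under vehicle (median 7.77 RPKM), without overlap, with a log2 fold change of 0.65 (SE 0.13, limma adjusted p = 0.00514).

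Among 9 tested genes of sterol export and storage 1 was called on the normal diet, Soat1, which esterifies cholesterol for storage. Soat1 ranged from 27.2 to 47.6 RPKM after 1,25D (median 40.7 RPKM) and from 14.0 to 29.4 RPKM under vehicle (median 20.4 RPKM), with a log2 fold change of 0.89 (SE 0.19, limma adjusted p = 0.0107). Among 22 tested further genes of fatty acid synthesis 1 was called, Mid1ip1, an activator of acetyl-CoA carboxylase, with 38.1 ± 4.54 RPKM after 1,25D and 25.6 ± 5.24 RPKM under vehicle (SD, n = 6 each). Its log2 fold change was 0.58 (SE 0.14, limma adjusted p = 0.0316). The calls of Nr1h3 and Soat1 held in all 24 fits that left out 1 library. That of Mid1ip1 held in 16 of them. It was lost without normal vehicle replicate 2, 3, 4 or 6 or normal 1,25D replicate 3, 4, 5 or 6, at adjusted p of 0.0552 to 0.0875. The Mid1ip1 call was also lost under quantile normalization (adjusted p = 0.165), with libraries rescaled without pancreas genes (adjusted p = 0.0776) and with no trend (adjusted p = 0.0523). No gene of these 3 lists was called lower.

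On the rescue diet, no gene of these 3 lists was called after 1,25D. Soat1 ranged from 21.0 to 52.0 RPKM after 1,25D (median 44.0 RPKM) and from 18.5 to 27.0 RPKM under vehicle (median 21.3 RPKM), with a log2 fold change of 0.84 (limma adjusted p = 0.0876). Nr1h3 had a log2 fold change of -0.10 (limma adjusted p = 0.899). The difference of the Nr1h3 effect between the diets was -0.75 (limma adjusted p = 0.187). Averaged over both diets, Soat1 (0.87, limma adjusted p = 0.000329) and Mid1ip1 (0.43, adjusted p = 0.0290) were called higher. The averaged Mid1ip1 call was lost at adjusted p of 0.0528 to 0.0621 without normal vehicle replicate 3, normal 1,25D replicate 3 or 5, rescue vehicle replicate 1, 3 or 4, or rescue 1,25D replicate 1, 2 or 3. It was also lost under quantile normalization (adjusted p = 0.0677) and with no trend (adjusted p = 0.0527). In the comparisons between the diets, 0 genes of the 3 lists were called.

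In some libraries most sterol enzymes stood high, or low, at the same time. The sterol score, the mean over 18 enzymes of log2(RPKM + 0.5) centred on each gene's mean, ran from -0.53 to 0.56 in the rescue 1,25D group and from -0.22 to 0.34 in the rescue vehicle group. On the normal diet it ran from -0.19 to 0.46 after 1,25D and from -1.0 to 0.17 under vehicle. In rescue 1,25D replicates 2 and 3, 18 of 18 sterol enzymes were above their own mean, whereas 0 of 18 were in normal vehicle replicate 6. The fatty acid score ran from -0.41 to 0.47 in the rescue 1,25D group and from -0.39 to 0.13 in the normal 1,25D group. These scores are descriptions, and each range overlaps every other.

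**Figure D4:**
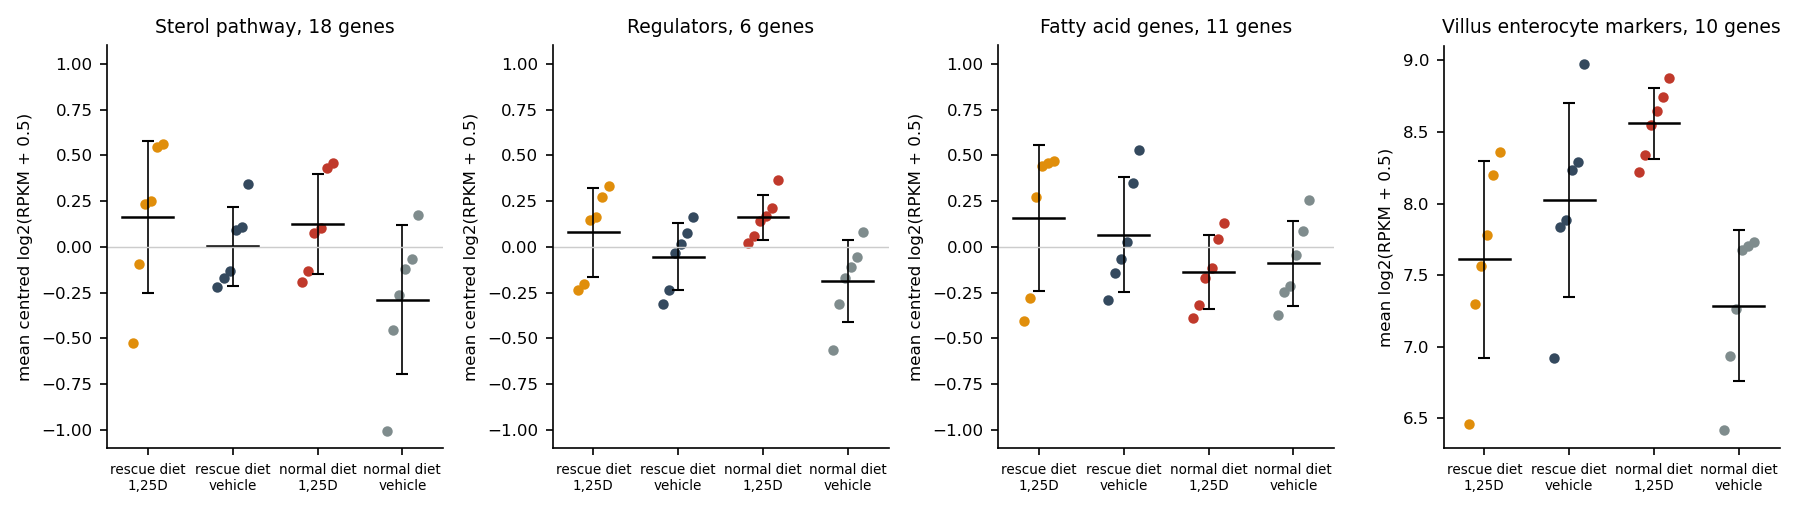
Mean log2(RPKM + 0.5) per library of 18 sterol enzymes, 6 regulators and 11 fatty acid genes, each centred on its mean over all libraries, and of 10 villus enterocyte markers, not centred; points are libraries, bars are means and whiskers are SD (n = 6). Groups overlap in the 3 member panels, where normal vehicle replicate 6 is the lowest sterol point at -1.0, while the marker panel separates 1,25D from vehicle on the normal diet.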

How the data were processed

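Per the labels' protocols, RNA of the duodenum was freed of ribosomal RNA and made into directional libraries. TopHat and the mm9 build are named in the submitters' processing notes, without versions; how genes were quantified, and on which annotation, is not stated there. Each library has 1 file of RPKM values as deposited by the authors, per the file headers, with 30795 rows for 25410 symbols, used unchanged. Rows sharing a symbol (4 members had 2 rows) were added up, which merges isoforms. Values carry no counts, so depth and counting error are unknown, and summed RPKM ran from 541395 to 697913 per library.

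One limma 3.58.1 fit (R 4.3.3) was made on log2(RPKM + 0.5) with an intensity trend, for 20006 genes at 0.5 RPKM or more in at least 6 of 24 libraries, with a mean for each group (20 residual degrees of freedom). The 7 comparisons set 1,25D against vehicle on either diet and averaged, and rescue against normal diet with either injection and averaged, beside the difference of the 1,25D effects. Tests were two-sided, with Benjamini-Hochberg adjustment over all genes tested. Fold changes on this scale understate changes of low genes. Comparisons share groups and are not independent of each other.

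Genes named are members called in any comparison, the 4 with the smallest unadjusted p in each comparison, the regulators Srebf1, Srebf2, Scap, Insig1 and Insig2, and Acaca and Fasn. Of other lists, called genes or else up to 2 with the smallest p come under the rule; some of these results are not reported here. The text names further genes, among them Fads2 and most sterol enzymes, chosen after their values were seen. Members, lists and alternatives were chosen with earlier results of these data known. Alternatives covered pseudocounts of 1 and 0.1, no filter, quantile and median-of-ratios scaling, rescaling without pancreas genes, array weights, the replicate number as a block, no trend, a fit of only the groups compared, and each library left out. Leaving out normal vehicle replicate 6 and rescue 1,25D replicate 4 together was added after the data were seen. Python 3.11.15, numpy 2.4.6, pandas 2.3.3 and matplotlib 3.10.9 were used for tables, motif searches and figures.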

Additional observations from a re-analysis of the deposited data

Results flagged for a closer look

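Of 140 sets of 6 libraries (35 members in 4 groups), 7 held a library that stood apart from the other 5 by Dixon's test, all on the low side; chance alone flags about 1 in 20 sets. In normal vehicle replicate 6, Insig2 was at 10.6 RPKM (16.7 to 17.8 RPKM in the other 5), Ggps1 at 11.1 RPKM (16.5 to 20.4 RPKM) and Nsdhl at 1.70 RPKM (3.77 to 5.24 RPKM). In rescue 1,25D replicate 4, Cyp51 was at 22.3 RPKM (49.0 to 61.6 RPKM in the other 5) and Mvk at 3.14 RPKM (6.84 to 10.5 RPKM). Srebf1 was at 5.15 RPKM in rescue 1,25D replicate 6 (6.88 to 8.06 RPKM in the other 5). Srebf2 was at 7.85 RPKM in normal 1,25D replicate 2 (9.60 to 10.4 RPKM in the other 5).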

How the results depend on the processing

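The count of 1 member called after 1,25D on the normal diet became 0 with no filter, quantile normalization, median-of-ratios scaling, rescaling without pancreas genes, array weights, no trend, the replicate number as a block, or without normal vehicle replicate 6 and rescue 1,25D replicate 4 together, and 2 (Sc4mol and Insig1) in the fit of only the groups compared. The Sc4mol adjusted p over these alternatives and those leaving out 1 library ran from 0.0200 to 0.125, with log2 fold changes of 0.89 to 1.18. The count of 1 for the average over both diets (Insig2) became 0 with no trend and with the replicate block, and its adjusted p ran from 0.0128 to 0.0790. Leaving out 1 library gave 0 to 1 members in these comparisons and 0 to 0 in the other 5. Array weights gave 5 members higher on the rescue diet after 1,25D, against 0. Calls over all genes rose too, from 2 of 20006 with equal weights to the count given above, and the cause was not tested. No member changed sign where it was called. Depth, unknown here, limits what can be said of members under 5 RPKM.

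With the replicate block, Sc4mol on the normal diet had a limma adjusted p of 0.0670 and Insig2 over both diets of 0.0724, and 0 members were called in each of the 7 comparisons. At the median, same-numbered libraries were no more alike than others. Of 36 same-numbered pairs across groups, 13 had a correlation of deviations over 0.1, and the median was 0.0023, against 0.02 for other pairs. The pairs ran from -0.44 to 0.48, and the median does not show whether some numbers mark shared handling.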
